A study of Mus musculus with 8 samples.

Results

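The heavy chain variable (V) genes of B cells were surveyed across the 3 B cell receptor libraries of the series. A cell was a barcode with a productive immunoglobulin heavy chain (IGH) contig, that is, an assembled transcript with an open reading frame, and its V gene was that of the heavy contig with the most unique molecular identifiers (UMIs). By this rule 96 IGHV genes of 15 families were found, out of 198 V genes when the light chain genes are counted too, in 14380 of 15592 barcodes. The anti-CTLA-4 library held 5362 of these cells and 92 of the V genes, the isotype library 4522 cells and 91 V genes, and the saline library 4496 cells and 92 V genes. In the RefSeq annotation of GRCm38.p6 all 96 genes lie on chromosome 12, where 93 are V segments and 3 (IGHV1-2, IGHV7-1 and IGHV7-3) are called V segment pseudogenes.

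All mice were C57BL/6, and all tissue was the deep cervical lymph nodes, which drain the brain and meninges, taken on day 20 as live immune cells sorted by FACS. Mice of the anti-CTLA-4 group carried intracranial GL261 glioma, a mouse glioma line, and received an antibody against CTLA-4, an inhibitory receptor of T cells. Mice of the isotype group carried the same tumour and received isotype IgG. Mice of the saline group were given DPBS in place of tumour cells and are labelled with DPBS as their only treatment. A pair of further groups carried GL261, received anti-CD20, which depletes B cells, and were given anti-CTLA-4 or isotype IgG; only expression libraries of these were analysed here. Each group is 1 library and the number of mice behind it is not given in the sources used here, so no difference between groups could be tested: every interval below is a 95% interval (exact Clopper-Pearson for a share, log-normal for a ratio) that covers counting error only, and fewer cells of a kind cannot be told apart from poorer recovery of their receptor.

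A heavy chain is built by joining 1 V segment to a D and a J segment. The V segment encodes the first 3 framework regions and the first 2 complementarity-determining regions (CDR1 and CDR2), which contact antigen, and the third (CDR3) spans the joint. A naive B cell carries the chain as IgM and IgD. In a germinal centre, activated B cells mutate their V segments and are selected for binding, and class switching replaces the IgM constant region with IgG, IgA or IgE. Mouse IGHV genes fall into sequence families of very unequal size, the largest being IGHV1 (also called J558), and the families close to the D segments, such as IGHV5 and IGHV2 (Q52), precede IGHV1 along the locus.

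The 3 V segments around which the results turn are printed first, as the most common nucleotide sequence of each gene among these cells, 5′ to 3′ from framework 1 to framework 3, with CDR1 and CDR2 in capitals. IGHV1-26 (chr12:114788372-114788665) was the most used gene and IGHV9-3 (chr12:114140692-114141122) carried the largest clone. IGHV1-9 (chr12:114583569-114583862) had the most switched clones of identical CDR3 under anti-CTLA-4. Positions are those of the RefSeq genes in GRCm38.p6, and each sequence was read from the contigs.
IGHV1-26: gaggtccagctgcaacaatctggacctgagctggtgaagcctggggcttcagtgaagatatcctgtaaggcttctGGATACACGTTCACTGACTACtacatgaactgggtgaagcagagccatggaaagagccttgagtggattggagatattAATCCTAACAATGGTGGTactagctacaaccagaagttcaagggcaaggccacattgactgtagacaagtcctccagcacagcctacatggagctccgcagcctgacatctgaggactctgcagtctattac
IGHV9-3: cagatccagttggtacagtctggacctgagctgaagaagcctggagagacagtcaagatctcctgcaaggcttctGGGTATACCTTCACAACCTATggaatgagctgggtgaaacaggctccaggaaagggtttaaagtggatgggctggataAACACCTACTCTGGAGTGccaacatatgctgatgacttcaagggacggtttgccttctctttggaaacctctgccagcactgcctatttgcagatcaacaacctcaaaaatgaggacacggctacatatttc
IGHV1-9: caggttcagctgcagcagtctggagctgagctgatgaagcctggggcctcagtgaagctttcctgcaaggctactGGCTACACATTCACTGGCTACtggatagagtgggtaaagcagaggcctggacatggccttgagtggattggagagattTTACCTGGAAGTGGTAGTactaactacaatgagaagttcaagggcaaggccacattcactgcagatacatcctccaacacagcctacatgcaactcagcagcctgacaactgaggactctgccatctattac
These sequences were shared by 941 of 956 IGHV1-26 cells, 533 of 557 IGHV9-3 cells and 390 of 407 IGHV1-9 cells.

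The cells matched their label as B cells. A UMI of Cd79a or Cd79b, the signalling chains of the B cell receptor, was present in 99.8% of the heavy chain cells of each library that were found in the expression data, and a productive light chain contig was present in 98.9%, 98.6% and 99.0% of the cells of the anti-CTLA-4, isotype and saline libraries. A UMI of a T cell gene (Cd3d, Cd3e or Cd3g) was present in 13.5%, 9.29% and 9.76% of them. The median heavy contig rested on 11, 10 and 11 UMIs, with maxima of 17326, 20047 and 9573. Of all barcode sequences 112 occurred in more than 1 receptor library, and 2 of these carried the same heavy chain receptor in both.

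The heavy chain repertoire of the nodes was broad and its family make-up nearly the same in the 3 libraries. IGHV1 encoded 66.0% (64.7 to 67.3) of the cells under anti-CTLA-4, 65.5% (64.1 to 66.9) with isotype and 65.6% (64.2 to 67.0) with saline. IGHV5 followed with 6.56%, 7.32% and 7.30%, IGHV8 with 6.34%, 5.35% and 5.27%, IGHV9 with 5.17%, 5.68% and 5.72%, IGHV14 with 5.02%, 4.87% and 4.80%, and IGHV2 with 4.64%, 4.56% and 4.56%. The other 9 families each held less than 2.3% of any library. The family that differed most was IGHV8, by 1.07 points between the highest and the lowest library; its anti-CTLA-4 over isotype ratio was 1.18 (1.01 to 1.39), and its isotype over saline ratio 1.02 (0.853 to 1.21).

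**Figure D1:**
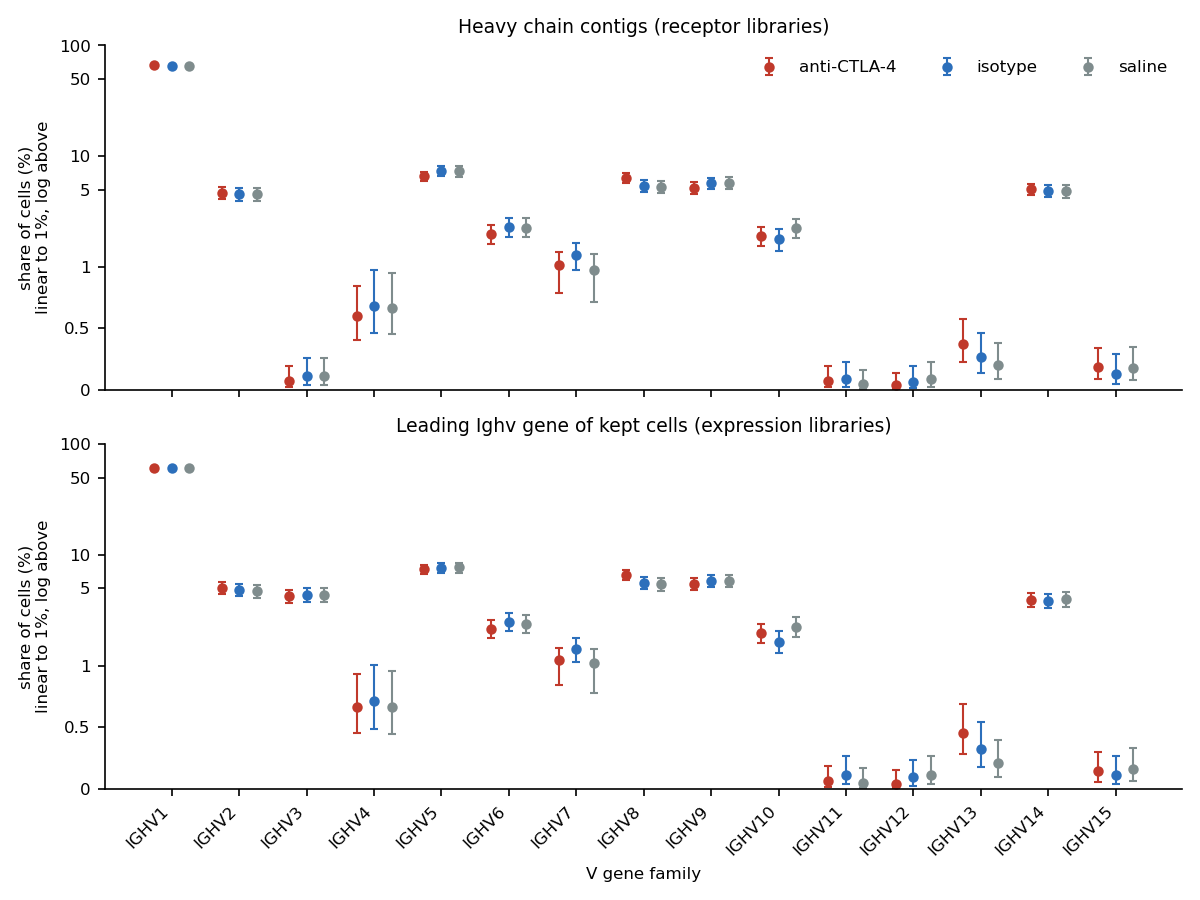
Share of cells (%, axis linear up to 1% and logarithmic above) by IGHV family, with exact 95% intervals, in receptor contigs (upper panel) and by the leading Ighv gene of expression cells (lower panel), for the anti-CTLA-4, isotype and saline libraries. IGHV1 lies between 65.5% and 66.0% by contigs in every library, and IGHV3 is near 0.1% by contigs but above 4% by leading gene.

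Single V genes were also used to similar extents. Of the 96 genes, 89 occurred in all 3 libraries, 31 made up at least 1% of the cells of each, and 12 had fewer than 10 cells in all. IGHV1-26 led with 360 cells (6.71%, 6.06 to 7.42) under anti-CTLA-4, 296 (6.55%, 5.84 to 7.31) with isotype and 300 (6.67%, 5.96 to 7.44) with saline. By the mean over the 3 libraries IGHV9-3 came next, with 3.51%, 4.00% and 4.18%, IGHV1-64 with 3.77%, 3.38% and 3.51%, IGHV1-81 with 3.36%, 3.60% and 3.56%, and IGHV8-8 with 3.77%, 3.36% and 2.98%. The remaining genes of the 10 most used were IGHV1-82, IGHV1-18, IGHV1-72, IGHV1-9 and IGHV1-69, between 2.71% and 3.45% of any library, and together the 10 held 36.3%, 35.6% and 35.8% of the cells. The effective number of V genes, the number of equally used genes that would give the same Shannon diversity, was 56.7, 57.5 and 56.7.

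Across the 96 genes the shares of pairs of libraries had a Pearson correlation of 0.980 (anti-CTLA-4 and isotype), 0.984 (anti-CTLA-4 and saline) and 0.987 (isotype and saline), and a Spearman correlation of 0.975, 0.981 and 0.977. These describe genes that share a strain, a tissue and a library method, and genes are not replicates. The largest single differences were 0.769 points for IGHV5-17 between anti-CTLA-4 and isotype, 0.787 points for IGHV8-8 between anti-CTLA-4 and saline, and 0.655 points for IGHV1-53 between isotype and saline; IGHV5-17 was named after its values were seen.

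By contigs, shares were larger along the locus away from the D segments. When the 96 genes were ordered by position and cut into 4 stretches of 24 genes each, the stretch nearest to the D segments, IGHV5-2 to IGHV9-1, held 16.5% of the anti-CTLA-4 cells, 17.4% of the isotype cells and 17.0% of the saline cells. The next, IGHV9-2 to IGHV1-12, held 17.2%, 17.9% and 17.6%. The third, IGHV1-15 to IGHV1-55, held 28.7%, 29.1% and 29.4%, and the farthest, IGHV1-56 to IGHV1-85, held 37.6% (36.3 to 38.9), 35.5% (34.1 to 37.0) and 35.9% (34.5 to 37.3). The gradient was present in each library, and within each stretch neighbouring genes differed by far more than the libraries did. IGHV5-2, known as VH81X and as the segment rearranged most often in fetal B cell precursors, lies at the end nearest to the D segments and was found in 8, 4 and 1 cells.

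**Figure D2:**
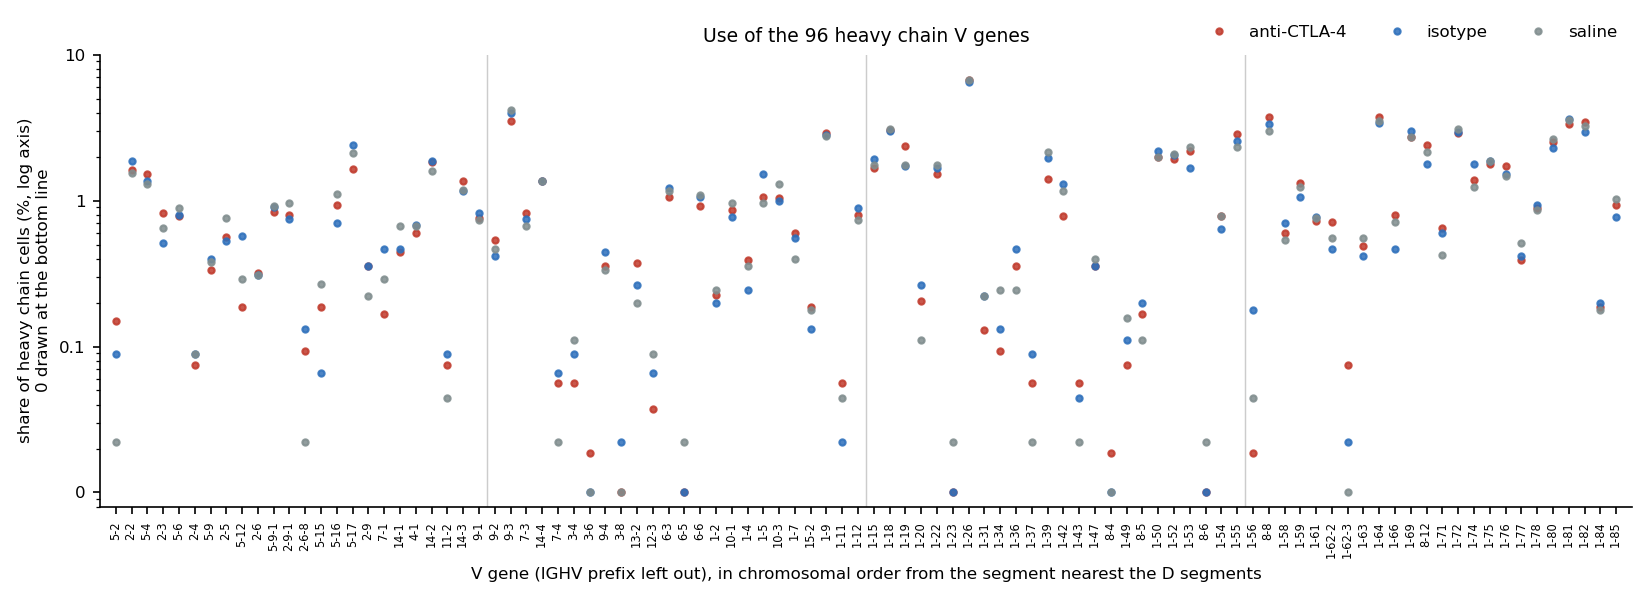
Share of cells (%, log axis) of each of the 96 IGHV genes, ordered by position from the D segments outward, with a point for each of the anti-CTLA-4, isotype and saline libraries, a share of 0 at the bottom line and grey lines between the 4 stretches. The points of the 3 libraries lie close together at the more used genes, while genes range from under 0.1% to 6.71%.

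Anti-CTLA-4 was then set against isotype, gene by gene, among the 69 V genes with at least 30 cells over both libraries. A share at least 1.5-fold higher was found for 4 genes (5.8% of those rated) and one at least 1.5-fold lower for 3 (4.35%), while 51 of the 69 lay within 1.25-fold and the median log2 ratio was 0.00. The higher genes were IGHV1-66 (43 cells against 21; ratio 1.73, 1.03 to 2.91), IGHV2-3 (44 against 23; 1.61, 0.976 to 2.67), IGHV1-4 (21 against 11; 1.61, 0.777 to 3.34) and IGHV1-62-2 (38 against 21; 1.53, 0.897 to 2.60), the last outside the rule for named genes. The lower ones were IGHV5-12 (10 against 26; 0.324, 0.157 to 0.672), IGHV7-1 (9 against 21; 0.361, 0.166 to 0.788) and IGHV1-42 (42 against 59; 0.600, 0.405 to 0.890). Of the 7 intervals, 4 exclude 1, but the genes were picked from the 69 by these same ratios, so this tests nothing. Some genes within the fold had such intervals too, for example IGHV5-17 (0.681, 0.516 to 0.899) and IGHV1-19 (1.37, 1.04 to 1.82). The 7 genes past the fold had a median of 59 cells over both libraries, against 97 for all those rated.

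Some of these differences depend on how a cell or gene is counted. IGHV2-3 had 38 clones against 23 when each clone was counted once, a ratio of 1.39, because 7 of its cells are 1 clone. IGHV1-62-2 and IGHV1-71 have the same most common V segment and cannot be told apart by it; together they held 1.36%, 1.06% and 0.979% of the anti-CTLA-4, isotype and saline cells, an anti-CTLA-4 over isotype ratio of 1.28 (0.893 to 1.84). IGHV7-1, the S107 segment of the T15 antibody to phosphorylcholine, had 9, 21 and 13 cells in the 3 libraries, none of them switched, and IGHV5-12 had 10, 26 and 13.

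For isotype against saline, 65 V genes could be rated, 4 of them (6.15%) higher and 2 (3.08%) lower by at least 1.5-fold, and 46 lay within 1.25-fold. IGHV5-12 had 26 cells against 13 (ratio 1.99, 1.02 to 3.86), IGHV1-36 had 21 against 11 (1.90, 0.916 to 3.93), IGHV7-1 had 21 against 13 (1.61, 0.805 to 3.20) and IGHV1-5, outside the rule for named genes, had 69 against 43 (1.60, 1.09 to 2.33). IGHV5-16 had 32 against 50 (0.636, 0.409 to 0.990), IGHV1-66 had 21 against 32 (0.652, 0.377 to 1.13) and IGHV14-1, within the fold, had 21 against 30 (0.696, 0.399 to 1.21). The comparison shares the isotype library with the previous one: IGHV5-12 and IGHV7-1 had more cells in that library than in both others, and IGHV1-66 had fewer.

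**Figure D3:**
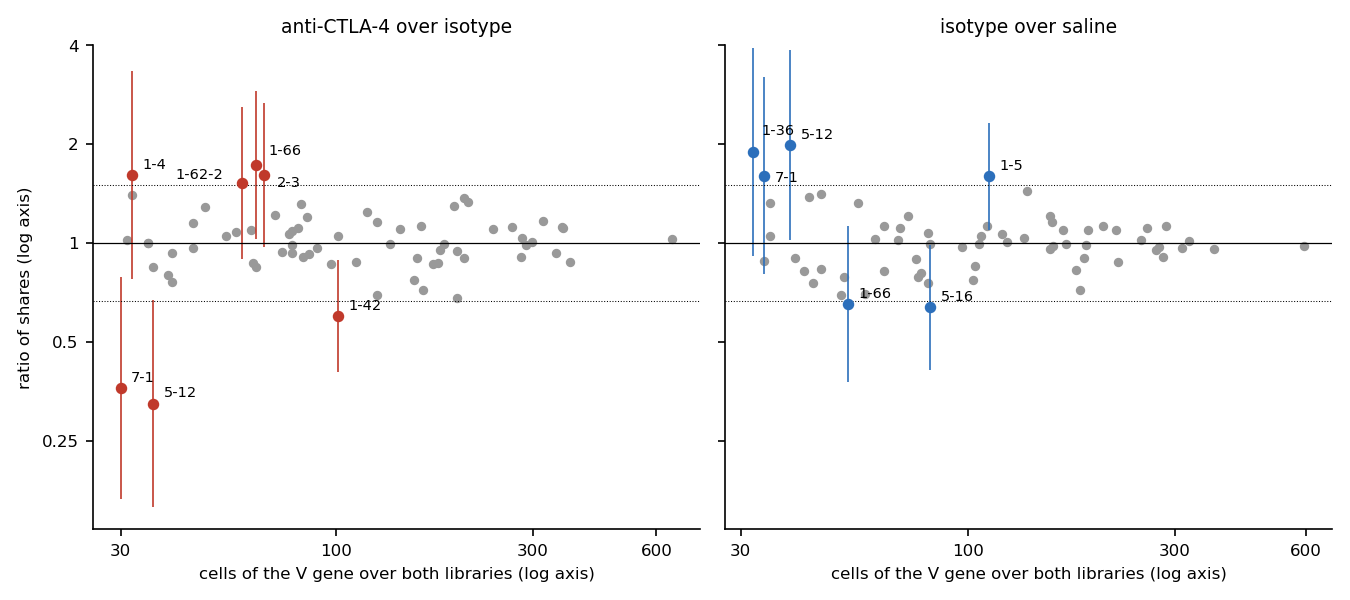
Ratio of V gene shares (log axis) against the number of cells of the gene over both libraries (log axis), for anti-CTLA-4 over isotype and for isotype over saline; coloured points are genes past 1.5-fold (dotted lines) with their 95% intervals of counting error. IGHV1-5, with 69 isotype and 43 saline cells, is the most frequent gene past the lines; every more frequent one lies between them.

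The expression libraries give a second count of the same genes. There, the leading Ighv gene of a cell was the one with most UMIs among cells with at least 3 Ighv UMIs, and in cells with at least 2 Ighv UMIs it was the V gene of the contig in 98.0%, 98.3% and 99.2% of the anti-CTLA-4, isotype and saline cells. By leading gene the anti-CTLA-4 over isotype ratio was 0.386 for Ighv5-12 (12 cells against 28), 0.386 for Ighv7-1 (9 against 21), 0.522 for Ighv1-42 (33 against 57), 1.97 for Ighv1-66 (46 against 21) and 1.68 for Ighv2-3 (43 against 23). Ighv1-4 went the other way, with 1 cell against 5 (0.180, 0.0211 to 1.54). The isotype over saline ratio was 1.65 for Ighv5-12, 1.92 for Ighv1-36, 1.62 for Ighv7-1, 0.583 for Ighv5-16, 0.636 for Ighv1-66 and 0.680 for Ighv14-1. The same nodes gave both kinds of library, so the second count speaks to the counting and not to other mice.

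The largest departure between the readouts concerned the IGHV3 family (the 36-60 family), in particular IGHV3-6 (chr12:114288152-114288447) and IGHV3-8 (chr12:114322376-114322666), both named after their values were seen. By contigs IGHV3-6 had 1 cell with anti-CTLA-4, 0 with isotype and 0 with saline. An allowance of 3 counts is a share of 0.0663% with isotype and 0.0667% with saline. By leading gene it had 179 cells (3.71%, 3.20 to 4.28), 159 (3.66%, 3.12 to 4.26) and 164 (3.77%, 3.23 to 4.38), a level that would place it among the most used genes. IGHV3-8 had 0, 1 and 0 contig cells and led in 23, 26 and 21. The whole family therefore held 0.0746%, 0.111% and 0.111% of the cells by contigs, and 4.25%, 4.35% and 4.37% by leading gene, and IGHV1 held 60.6%, 61.0% and 61.0% by leading gene.

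The cells led by Ighv3-6 were present in the receptor libraries, mostly with a light chain alone. Of the 502 such cells, 29 had a heavy contig, 404 had only a light chain and 69 had neither. Seen from the other side, 435, 439 and 338 barcodes of the anti-CTLA-4, isotype and saline libraries had a productive light chain and no productive heavy chain. Of those with a leading Ighv gene, Ighv3-6 led in 140 of 178 (78.7%, 71.9 to 84.4), 127 of 168 (75.6%, 68.4 to 81.9) and 137 of 160 (85.6%, 79.2 to 90.7), Ighv3-8 led in 21, 22 and 16, and all other genes together led in 17, 19 and 7. Among cells with a heavy contig Ighv3-6 led in 0.334%, 0.227% and 0.124%. The gap has the same size in the 3 libraries, its cause was not tested, and contig shares of all other genes are shares of the cells that had a heavy contig.

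A few genes departed in the opposite direction. IGHV1-71 led in 1 cell against 81 contig cells over the 3 libraries, IGHV1-7 in 9 against 75, IGHV1-62-2 in 13 against 84 and IGHV1-4 in 10 against 48. These were the only 4 of the 70 genes with at least 30 contig cells that led in fewer than 0.5 cells per contig cell; the median over the 70 was 0.981, and none exceeded 1.5. IGHV1-71 and IGHV1-7 were named after their values were seen.

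By cells, IGHV1 shares differed more between libraries among switched than among unswitched cells, but switched cells were few. Switched cells, those with an IgG, IgA or IgE constant gene on the heavy contig, numbered 116 in 82 clones under anti-CTLA-4, 66 in 47 clones with isotype and 31 in 22 clones with saline, a clone being all cells of 1 library with the same V gene, J gene and CDR3 nucleotides. They used 36, 26 and 13 V genes. IGHV1 encoded 62.1% (52.6 to 70.9) of the switched and 66.1% of the unswitched cells under anti-CTLA-4, 68.2% (55.6 to 79.1) and 65.5% with isotype, and 83.9% (66.3 to 94.5) and 65.4% with saline. Counted per switched clone IGHV1 stood at 69.5%, 66.0% and 77.3%, and these 3 intervals overlap.

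IGHV9 was the only family whose switched over unswitched ratio had an interval above 1 in both tumour-bearing groups. It encoded 16.4% (10.2 to 24.4) of the switched and 4.93% of the unswitched cells under anti-CTLA-4 (ratio 3.32, 2.17 to 5.10), 13.6% (6.43 to 24.3) and 5.56% with isotype (2.45, 1.32 to 4.55), and 3.23% (0.0816 to 16.7) and 5.74% with saline, where it is 1 switched cell. Most of these were IGHV9-3, with 17 of 116 switched cells under anti-CTLA-4, 9 of 66 with isotype and 1 of 31 with saline. Per clone the picture divides: IGHV9-3 held 4 of 82 switched clones under anti-CTLA-4 (4.88%), close to its 3.27% of unswitched cells, and 8 of 47 with isotype (17.0%), against 3.87% of unswitched cells. The IGHV9 clone ratio was 1.48 (0.679 to 3.23) under anti-CTLA-4 and 3.06 (1.61 to 5.82) with isotype. Without the largest switched clone of the library, IGHV9-3 held 2.94% of the switched anti-CTLA-4 cells. The single switched IGHV9-3 cell of the saline library has 4 UMIs and shares its barcode and its receptor with an isotype cell of 6682 UMIs, and without barcodes found in more than 1 library the saline count is 0 of 29, which is also the case without cells that hold a T cell gene UMI (0 of 23).

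IGHV1-9 was over-represented among switched cells under anti-CTLA-4 by cells and by clones of the same CDR3, some of which are related. It encoded 16 switched cells in 9 clones there (13.8%), against 2.67% of unswitched cells, a ratio of 5.16 (3.18 to 8.36) over cells and 4.09 (2.16 to 7.74) over clones. The isotype library had 1 such cell and the saline library none of 31. Of the 9 anti-CTLA-4 clones, 4 with 10 cells, all IgG1 with IGKV12-41, became 1 group when CDR3s at least 85% identical were joined. Per joined group IGHV1-9 held 5 of 62, as many as IGHV1-26 and IGHV1-80 each held, and IGHV1-50 held 4. The IGHV1-9 share was 8.06% (2.67 to 17.8), an interval that reaches down to its share of unswitched cells. IGHV2-3 had a higher ratio over cells, 8.54 (3.89 to 18.7), from 7 switched cells of 1 clone, and 1.72 (0.239 to 12.4) over clones; IGHV1-12, with 3 switched cells of 1 clone, stood at 3.38 (1.06 to 10.8) over cells and 1.59 (0.221 to 11.4) over clones. Other genes with several switched clones under anti-CTLA-4 were IGHV1-26 (8 cells, 7 clones), IGHV1-64 (7 cells, 5 clones), IGHV1-50 (6 cells, 5 clones) and IGHV1-80 (5 cells, 5 clones). IGHV1-26, the most used V gene, had 0 switched cells with isotype and 1 with saline. With isotype the genes with most switched clones after IGHV9-3 included IGHV1-15, IGHV1-22, IGHV1-82 and IGHV10-1, and with saline they were IGHV1-64, IGHV1-55, IGHV1-18, IGHV1-85 and IGHV6-6.

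**Figure D4:**
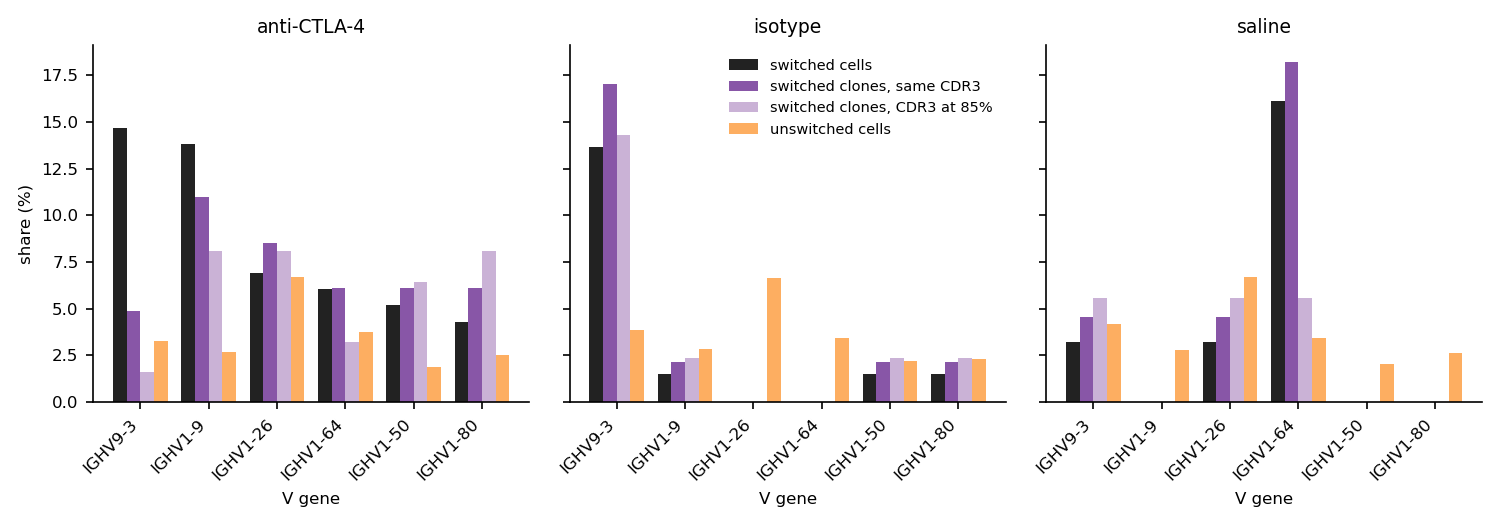
Share (%) of 6 V genes among switched cells, switched clones of the same CDR3, switched clones joined at 85% CDR3 identity, and unswitched cells, in the anti-CTLA-4, isotype and saline libraries. IGHV9-3 holds 14.7% of the switched cells but 4.88% of the switched clones under anti-CTLA-4, against 13.6% and 17.0% with isotype.

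A group of closely related receptors, with members in both tumour-bearing groups, accounted for all 17 switched IGHV9-3 cells under anti-CTLA-4 and 4 of the 9 with isotype; it was singled out after its values were seen. All 21 cells of the group paired IGHV9-3 and IGHJ4 with the light chain IGKV10-96, all were IgG1, and all had a CDR3 of 36 bases. The anti-CTLA-4 library held 17 of them in 4 clones (0.317% of its cells, 0.185 to 0.507), which is 17 of its 82 IgG1 cells (20.7%, 12.6 to 31.1). The isotype library held 4 in 3 clones (0.0885%, 0.0241 to 0.226), 4 of its 21 IgG1 cells (19.0%, 5.45 to 41.9). The saline library held 0 of 4496 cells (exact upper bound 0.0820%), and had 5 IgG1 cells in all. The intervals of these shares of IgG1 cells overlap between the tumour-bearing groups. Cells of the group are related and not independent draws, which the intervals do not allow for. The 17 cells are themselves among the 82 IgG1 cells, and the reason for their larger number under anti-CTLA-4 was not tested.

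The versions of the libraries differ in their nucleotides. Below are the most common CDR3 of each library, 5′ to 3′, with the bases that differ between them in capitals.
IGHV9-3 anti-CTLA-4 CDR3: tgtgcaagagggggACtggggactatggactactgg
IGHV9-3 isotype CDR3: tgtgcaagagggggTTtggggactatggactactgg
Counting from the first base of the CDR3, all 4 isotype cells carry A15T and C16T relative to the common anti-CTLA-4 sequence, which none of the 17 anti-CTLA-4 cells does. In all 7 nucleotide versions of the CDR3 occurred; single anti-CTLA-4 cells carried G4A with T24A, G4T and T31A, and single isotype cells A9G and A32G. Of the 21 cells, 17 encode the same CDR3 amino acids, 14 under anti-CTLA-4 and 3 with isotype. No barcode of these cells occurred in another receptor library. Among 14207 groups of cells with the same V gene, J gene and CDR3 amino acids, 13 were found in more than 1 library, 7 of these in more than 1 nucleotide version and 3 with a switched cell; the IGHV9-3 group was the only one with more than 3 cells.

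These cells passed gates for germinal centre or antibody-secreting cells. By gates on the expression data (UMIs of at least 3 of 8 germinal centre genes such as S1pr2 and Rgs13, or at least 3 of 6 antibody-secreting genes such as Sdc1 and Prdm1), 14 of the 17 anti-CTLA-4 cells were germinal centre and 3 secreting, and of the 4 isotype cells 3 were germinal centre and 1 secreting. The heavy contigs held 6 to 100 UMIs in the anti-CTLA-4 cells and 20 to 7979 in the isotype cells. Those of the 3 anti-CTLA-4 cells counted as secreting held 74, 53 and 6. Cells passing both gates were counted as secreting, as were 41 of the 55 secreting cells of the anti-CTLA-4 library. At least 2 mismatches to the common IGHV9-3 segment were present in 8 of the 17 and 3 of the 4 cells. A T cell gene UMI was present in 3 of the 17 and in 0 of the 4 cells.

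Most switched IGHV9-3 cells, many of them related, carried a light chain of the IGKV10 family. An IGKV10 light chain was present in 17 of 17 switched IGHV9-3 cells under anti-CTLA-4, 6 of 9 with isotype and 1 of 1 with saline. In unswitched IGHV9-3 cells it was present in 5.88% (2.86 to 10.6), 8.72% (4.96 to 14.0) and 4.81% (2.22 to 8.94), close to 7.15%, 7.43% and 7.53% of cells of other V genes. For IGHV1-9, IGKV12-41 was present in 10 of 16 switched cells under anti-CTLA-4 (62.5%, 35.4 to 84.8), against 0 of 138 unswitched IGHV1-9 cells there, 4 of 125 with isotype and 3 of 122 with saline. Cells of 1 clone share their light chain, so the switched cells are not independent draws. The 17 anti-CTLA-4 IGHV9-3 cells, and 4 of the 6 isotype ones, are the group of related receptors above. The saline one is the cell of 4 UMIs that shares its barcode and receptor with an isotype cell.

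Joining switched clones of 1 library whose V gene, J gene and CDR3 length match and whose CDR3 nucleotides are at least 85% identical left 62, 42 and 18 groups. The 17 anti-CTLA-4 IGHV9-3 cells became 1 group, and the 8 isotype clones of IGHV9-3 became 6. The next largest anti-CTLA-4 groups were 10 IGHV1-9 cells of 4 clones (IgG1, IGKV12-41, 3 to 9 mismatches), 7 IGHV2-3 cells of 1 clone, 6 IGHV1-64 cells of 4 clones (IgG1, IGKV6-23, 0 to 9 mismatches) and 4 IgA cells of IGHV1-62-2 (8 to 13 mismatches). In the saline library they were 6 IgA cells of IGHV1-77, 5 IgG2c cells of IGHV1-64 with IGKV14-111 (8 to 16 mismatches) and 4 IgG3 cells of IGHV1-55 (4 to 8 mismatches). IGHV1-64 thus carried switched groups in both libraries, with another light chain and class in each. Counted per joined group IGHV1-9, IGHV1-26 and IGHV1-80 each stood at 5 of 62 (8.06%, 2.67 to 17.8) under anti-CTLA-4. IGHV9-3 stood at 1 of 62 under anti-CTLA-4 and at 6 of 42 (14.3%, 5.43 to 28.5) with isotype.

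Clones as a whole were small. The 14380 cells fell into 14226 clones, 5310, 4468 and 4448 in the anti-CTLA-4, isotype and saline libraries, of which 25, 33 and 40 had at least 2 cells and 9, 7 and 5 at least 3. The CDR3s of the largest clones after the IGHV9-3 clone are printed here, 5′ to 3′, with the first and last codon in capitals.
isotype IGHV1-72 clone: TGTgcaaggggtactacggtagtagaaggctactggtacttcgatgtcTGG
antiCTLA4 IGHV2-3 clone: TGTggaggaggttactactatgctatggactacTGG
saline IGHV1-77 clone: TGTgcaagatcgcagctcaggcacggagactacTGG
antiCTLA4 IGHV1-9 clone: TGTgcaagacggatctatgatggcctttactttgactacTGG
Their cells were of different kinds. The anti-CTLA-4 IGHV9-3 clone (14 IgG1 cells) held 11 cells of the germinal centre gate and 3 counted as secreting. It had 14 distinct V segments, with 0 to 5 mismatches each. Of its 27 distinct substitutions 23 were in 1 cell, none was in more than 2 cells and 1 lay in a CDR. The isotype IGHV1-72 clone held 10 secreting cells, 5 IgM and 5 IgG2c, all with the same unmutated V segment and IGKV3-1, at 1136 to 3928 UMIs. IGHV1-72 is the V186.2 segment of the classical response to nitrophenyl haptens, which in C57BL/6 mice pairs mostly with a lambda chain. The anti-CTLA-4 IGHV2-3 clone held 7 secreting cells, 6 IgG2b and 1 IgG2c, with IGKV19-93, 0 or 1 mismatch and 5882 to 10829 UMIs. The saline IGHV1-77 clone held 6 IgA cells with 9573, 7245, 26, 3, 3 and 2 UMIs; a light chain was found in 2 of them and a T cell gene UMI in 4, so most of its cells rest on few molecules.

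The anti-CTLA-4 IGHV1-9 clone was the most mutated of these 5. Its 5 IgG1 cells had 3 to 9 mismatches, 5 distinct V segments and 20 to 3530 UMIs, and 21 distinct substitutions, of which 17 were in 1 cell and 5 in a CDR. Counting from the first base of framework 1 of the common segment, G170T in CDR2 was present in all 5 cells, G92C in CDR1 in 4 and C263T in framework 3 in 3. The V segment of the most mismatched IGHV1-9 cell is printed with its 9 mismatches to the common sequence in capitals.
IGHV1-9 most mismatched cell: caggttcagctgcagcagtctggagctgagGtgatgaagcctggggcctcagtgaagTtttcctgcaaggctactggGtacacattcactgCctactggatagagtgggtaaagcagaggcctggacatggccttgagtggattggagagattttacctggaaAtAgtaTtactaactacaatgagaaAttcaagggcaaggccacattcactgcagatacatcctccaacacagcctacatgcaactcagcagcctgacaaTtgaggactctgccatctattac
IGHV1-9 also had the most clones of at least 2 cells under anti-CTLA-4, 4 of 25, with 11 cells. Further clones of 5 cells were found with isotype for IGHV1-12 (617 to 7660 UMIs), IGHV1-82 (50 to 7500 UMIs) and IGHV1-42 (4 IgM, 1 IgG1), and clones of 3 cells with saline for IGHV1-19, IGHV1-53, IGHV1-55 and IGHV1-58.

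**Figure D5:**
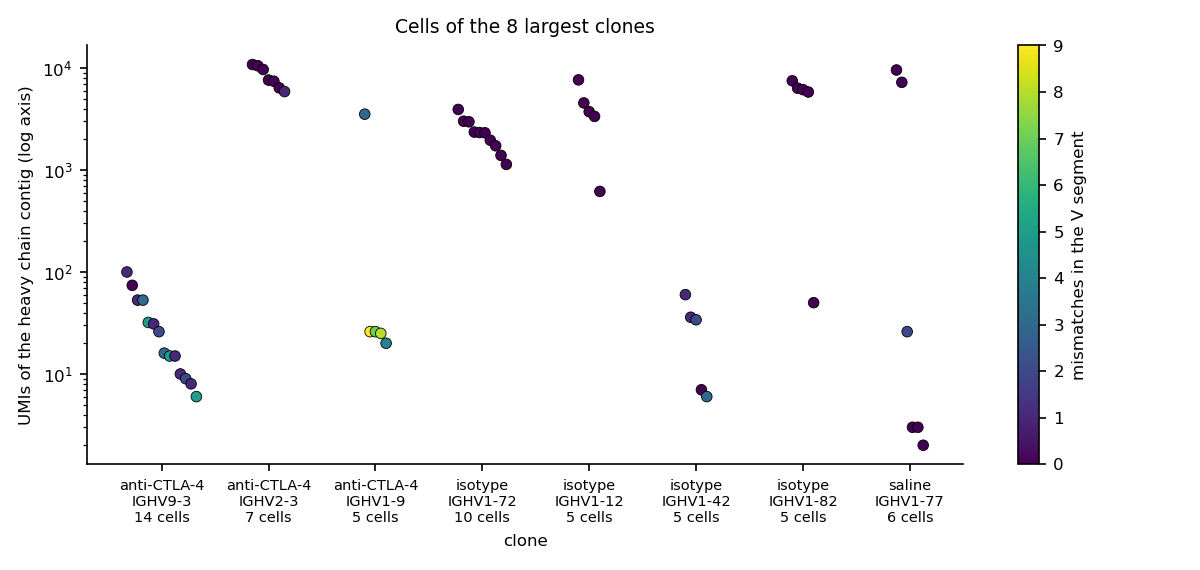
Heavy contig UMIs (log axis) of each cell of the 8 largest clones, named by library (anti-CTLA-4, isotype, saline) and V gene and sorted by UMIs within a clone, with the number of V segment mismatches as colour. The 7 IGHV2-3 cells lie between 5882 and 10829 UMIs, the 14 IGHV9-3 cells between 6 and 100.

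Counting a V segment as mutated from 2 mismatches on, 114 of 5341 cells were mutated under anti-CTLA-4 (2.13%, 1.76 to 2.56), 32 of 4507 with isotype (0.710%) and 27 of 4484 with saline (0.602%). Among switched cells the shares were 59.1% (49.6 to 68.2), 32.3% and 58.1%, and among unswitched cells 0.882% (0.646 to 1.17), 0.249% and 0.202%. Counting each anti-CTLA-4 clone once gave 1.70%. By number of mutated cells, IGHV1-9 led under anti-CTLA-4 with 14 of 156 cells (8.97%, in 7 clones), against 0.787% with isotype and 0 of 124 with saline. IGHV9-3 followed with 10 of 188 (5.32%, in 4 clones), against 3.31% and 0.532%. By share, genes of fewer cells stood higher, such as IGHV1-12 above IGHV1-9 (4 of 43, 9.30%) and IGHV1-50 above IGHV9-3 (7 of 105, 6.67%). IGHV1-72 had 1 mutated cell of 156, 2 of 133 and 1 of 139. Mismatches were counted against the cells' own common sequence, so sequencing errors and alleles that differ from it count too.

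The germinal centre gate held 183, 82 and 48 heavy chain cells of the anti-CTLA-4, isotype and saline libraries. IGHV9-3 encoded 21 of the 183 (11.5%, 7.25 to 17.0) and 8 of the 82 (9.76%, 4.31 to 18.3), and no IGHV9 gene any of the 48 (upper bound 7.40%). In cells outside both gates it encoded 3.20%, 3.89% and 4.22%. IGHV1-9 encoded 13 of the 183 germinal centre cells (7.10%, 3.84 to 11.8) and 1 of the 82, against 2.72% and 2.83% outside the gates. Related cells weigh in these shares. The group of related IGHV9-3 receptors gave 14 of the 21 anti-CTLA-4 and 3 of the 8 isotype IGHV9-3 cells. The largest joined IGHV1-9 group gave 7 of the 13 IGHV1-9 cells. Such cells are not independent draws, and the intervals do not allow for this. A T cell gene UMI was found in 25.1%, 32.9% and 33.3% of the gated germinal centre cells, and its part in these shares was not tested. The secreting gate held 55, 56 and 13 cells, in which single clones weigh most: IGHV2-3 encoded 7 of the 55 under anti-CTLA-4 (12.7%) and IGHV1-72 11 of the 56 with isotype (19.6%).

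V genes known from innate-like B cells were rare in the 3 libraries. IGHV7-1, the S107 segment described above, had 9, 21 and 13 cells and lay past 1.5-fold in both comparisons (0.361 and 1.61). IGHV11-2 and IGHV12-3 are used by B-1 cells that bind phosphatidylcholine, and had too few cells to be rated. IGHV11-2 was found in 4, 4 and 2 cells, all of them IgM, 7 of 10 with IGHJ1 and 5 of 10 with IGKV14-126, its usual partner, which was present in 0.479% (0.372 to 0.606) of the cells of other V genes. IGHV12-3 was found in 2, 3 and 4 cells, 5 of 9 with IGHJ1 and 3 of 9 with IGKV4-91. The 2 IGHV11-2 CDR3s below, with the first and last codon in capitals, each occurred in 2 libraries with IGKV14-126, the first in isotype and saline and the second in anti-CTLA-4 and isotype.
IGHV11-2 CDR3: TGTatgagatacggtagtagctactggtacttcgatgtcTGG
IGHV11-2 CDR3: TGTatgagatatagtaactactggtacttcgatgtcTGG
They are among the 6 heavy chain receptors, of 14220, whose nucleotides were found in more than 1 library.

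In the expression libraries Ighv transcripts stood at 2433 CPM (Ighv UMIs scaled to the library's total) with anti-CTLA-4, 4081 with isotype and 1725 with saline, and 675 and 788 after anti-CD20 with anti-CTLA-4 and with isotype. A handful of cells carried most of them: the 10 cells with most Ighv UMIs held 47.4%, 41.1% and 51.0% in the first 3 libraries and 97.1% and 98.2% in the depleted ones. Ighv2-3 alone gave 25.4% of the Ighv UMIs with anti-CTLA-4, and Ighv1-77 gave 21.2% with saline. Both are genes of large clones above, which held 7 secreting cells for IGHV2-3 and 2 for IGHV1-77. Without the top cell of each gene the totals were 1391, 2240 and 962 CPM in the 3 intact libraries, and 11.9 and 6.51 after depletion with anti-CTLA-4 and with isotype. Per gene, UMI totals thus depend on a few cells and do not count cells.

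Read in that way, 16 of 94 Ighv genes were at least 1.5-fold higher and 31 lower with anti-CTLA-4 than with isotype, against 4.86% and 2.62% of all genes, and 27 of 93 were higher and 9 lower with isotype than with saline, against 4.07% and 3.38% of all genes. Without the top cell of each gene these counts were 10 higher and 26 lower of 92 for anti-CTLA-4 against isotype, and 21 higher and 10 lower of 92 for isotype against saline. After anti-CD20, 79 of 88 Ighv genes were lower and 7 higher than in the intact anti-CTLA-4 library (12.1% and 12.5% of all genes), with a median log2 ratio of -5.15, and 86 of 91 were lower and 5 higher than in the intact isotype library (11.2% and 14.5% of all genes), with a median of -5.88. Without the top cell of each gene none was higher and all 85 and all 88 Ighv genes rated were lower in the depleted anti-CTLA-4 and isotype libraries. These libraries had 85 and 69 cells with at least 3 Ighv UMIs and 51 Ighv genes detected in each. The intact ones had 4917 and 4439 such cells. Leaving out 1 cell per gene thus takes a far larger part of the depleted Ighv cells, and is no separate check of the depletion. At least 3 Ighv UMIs were found in 0.942% and 0.771% of the cells of the depleted anti-CTLA-4 and isotype libraries, against 42.0% and 46.3% of the intact ones. Of the 83 and 68 depleted cells with a leading gene, IGHV1 led in 62.7% (51.3 to 73.0) and 44.1% (32.1 to 56.7), against 60.6% and 61.0% in the intact anti-CTLA-4 and isotype libraries. The top single cells there were 1 Ighv1-81 cell with 13829 of the 41882 Ighv UMIs of the depleted anti-CTLA-4 library and 1 Ighv5-6 cell with 16707 of the 48012 of the depleted isotype library; Ighv5-6 was named after its values were seen.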

How the data were processed

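Sorted lymph node cells were profiled with 10x 5′ V2 chemistry. The authors assembled receptor contigs with Cell Ranger (version 7.0.1 per the file headers) from reads converted with bcl2fastq 2.20.0 and with mm10 as the build, per the submitters' processing notes; the deposited values are counts of UMIs, per contig in the receptor tables and per gene in the expression matrices. Positions are from RefSeq GRCm38.p6, in which all 96 genes matched. Here, heavy chain cells were barcodes with a productive IGH contig, using the one with most UMIs. Switched means IGHG, IGHA or IGHE. Expression cells had at least 500 genes and at most 10% mitochondrial UMIs. No doublet caller was used and barcodes with a second heavy contig were kept, with alternatives that leave them out. Ratios were taken for genes of at least 30 cells and called at 1.5-fold; mismatches were counted for genes of at least 10 cells. Cells passing both gates (41, 35 and 7 in the anti-CTLA-4, isotype and saline libraries) were counted as secreting, an order chosen after seeing the data; 1 gene of the germinal centre gate is not reported here. Also chosen after seeing the data was joining clones at 85% identity for switched cells.

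Genes were named by a rule: the 10 most used, the 3 highest and lowest ratios per comparison, the genes of the 3 largest clones and of the most switched clones per library, and 5 textbook genes; others are marked. The genes and lists were chosen with earlier results of these data known. Alternatives counted clones, other cell minimums, folds, UMI minimums and mismatches, and left out shared barcodes or cells with T cell gene UMIs. Python 3.11.15, pandas 2.3.3, numpy 2.4.6, scipy 1.17.1 and matplotlib 3.10.9 were used; the scripts were tested on simulated data. PCR copies are collapsed by UMI, and intervals and allowances of 3 counts cover counting error only.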

Additional observations from a re-analysis of the deposited data

Results flagged for a closer look

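Second heavy chain contigs, which no comparison above uses, were found in 4.21% (3.69 to 4.79) of the anti-CTLA-4 cells, 4.02% (3.47 to 4.64) of the isotype cells and 3.16% (2.67 to 3.71) of the saline cells. They had a median of 7 UMIs in each library, 71.7%, 72.0% and 73.2% of them were IGHV1, and 2, 0 and 3 carried the receptor of another cell.

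Barcodes with a light chain and no productive heavy chain, also outside the shares above, were led by Ighv3-6 in 78.7%, 75.6% and 85.6% of those with a leading Ighv gene in the anti-CTLA-4, isotype and saline libraries.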

How the results depend on the processing

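For 46 values 333 alternatives were run. A reversal was scored only for the 96 alternatives of named gene ratios, and none of these reversed. The others were scored as the same (202) or moved (35). Of the shares by library, 76 of 81 alternatives stayed within the counting interval, and the other 5 used the leading Ighv gene: IGHV1 60.6%, 61.0% and 61.0% in the anti-CTLA-4, isotype and saline libraries, and IGHV1-26 6.03% and 5.80% in the first 2 of these. The 96 alternatives run for the 12 named gene ratios, all from contigs, kept their direction, and 82 of them lay past 1.5-fold; by the leading Ighv gene, which is not among these, 1 of the 12 did turn round, IGHV1-4 for anti-CTLA-4 over isotype (0.180, against 1.61 by contigs). Counts of genes past the fold are small and moved. For anti-CTLA-4 over isotype, the 4 higher genes became 2 with clones in place of cells, 2 with at least 60 cells and 0 at 2-fold, and the 3 lower became 1 with at least 60 cells. For isotype over saline, the 4 higher became 2 without T cell gene UMIs, 8 with at least 10 cells, 1 with at least 60 and 0 at 2-fold, and the 2 lower became 1, 4, 1 and 0 in the same order. The IGHV9-3 share of switched anti-CTLA-4 cells (14.7%) was 4.88% per clone and 2.94% without the largest clone, and that of switched saline cells (3.23%) was 0 with at least 5 UMIs, without shared barcodes or without T cell gene UMIs. Mutated anti-CTLA-4 cells (2.13%) were 1.70% per clone, 1.42% without clones of 2 or more cells, 2.71% at 1 mismatch and 0.899% at 5; isotype cells (0.710%) were 1.09% at 1 and 0.200% at 5. Ighv CPM without the top cell of each gene were 1391, 2240 and 962 with anti-CTLA-4, isotype and saline and 11.9 and 6.51 after depletion with anti-CTLA-4 and isotype; over all barcodes the depleted anti-CTLA-4 value was 687. Ighv2-3 was 36.3% of the anti-CTLA-4 Ighv UMIs without the top cell of each gene. The cause of these shifts was not tested beyond what each alternative leaves out.

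No paired analysis was possible because each group has 1 library. With 4496 to 5362 cells per library the interval of the most used gene, IGHV1-26, spans more than 1 point, and the switched cells, 116, 66 and 31 with anti-CTLA-4, isotype and saline, give wide intervals for any single gene.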
